A study of Mus musculus with 16 samples.

Results

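Transcript levels of 71 respiratory chain genes were examined in liver of progeroid Ercc1 d/- mice on 4 diets. The genes were taken by symbol from the 54752 genes of the count table, as the protein-coding genes named for a subunit of complexes I to IV or encoded on the mitochondrial genome. Of the 71, 58 are nuclear genes (36 of complex I, 4 of complex II, 8 of complex III and 10 of complex IV) and 13 are the protein genes of the mitochondrial genome (7 of complex I, 1 of complex III, 3 of complex IV and 2 of complex V, the ATP synthase). The rule uses names and no measured value, although it was set with earlier results of these data known.

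The respiratory chain passes electrons from NADH (complex I) and succinate (complex II) through ubiquinone, complex III and cytochrome c to oxygen at complex IV, and the proton gradient that complexes I, III and IV build drives ATP synthesis at complex V. Complexes I, III, IV and V are assembled from subunits made in the cytosol and subunits made on mitochondrial ribosomes, whereas complex II is encoded by nuclear genes alone. In hepatocytes the chain oxidises the reduced cofactors that fatty acid, amino acid and carbohydrate breakdown deliver.

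All 16 animals were males of the F1 hybrid C57BL6J/FVBN carrying the Ercc1 d/- genotype (1 truncated and 1 null allele of a DNA repair endonuclease subunit, which gives early ageing), and liver was taken at 11 weeks of age. No animal with intact Ercc1 entered any comparison. Each diet was fed ad libitum from 8 weeks of age to 4 animals: the AIN93G diet (control), a diet with 194% of the standard protein and 70% of the carbohydrate (high protein), a diet with 70% of the protein and 112% of the carbohydrate (low protein), or a diet with 70% of the fat and 112% of the carbohydrate (low fat). The series title places the question in how protein intake relates to a loss of transcript that depends on gene length in DNA repair deficiency. The labels do not say whether animals of a group shared a litter or cage, so each p-value reflects only the spread among these libraries.

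Library totals ran from 35243594 to 112789127 counts. Low fat replicate 2 was the deepest library and the next deepest held 46899907. The 6 hepatocyte markers in the table summed to between 76600 and 108000 CPM, the usual depth-scaled count, in the 16 libraries, with Alb alone at 47800 CPM or more. Muscle markers, whose tissue is rich in the chain, summed to at most 0.42 CPM with Myh2 at 0 in every library. The 3 brown fat markers summed to 0.716 to 249 CPM, nearly all of it from Elovl3 (0.716 to 249), which liver also expresses, with Cidea at most 0.188 CPM and Ucp1, the defining gene, at 0 in 15 of the 16 libraries. All 20 kidney tubule markers of a list were in the table, and their sum ran from 84.6 to 4810 CPM in the control libraries, 0.49 to 1440 on high protein, 930 to 2820 on low fat and 625 to 1220 on low protein, with Umod and Kap both at 0 in high protein replicate 1. Control replicate 4 stood apart from the other controls over all genes. Its counts gave a chi-square of 549 to 666 (per degree of freedom) against each of them, no other pair of libraries on 1 diet exceeded 149, and it had the lowest normalisation factor (0.7778). In bulk liver, fewer cells of a type and less RNA per cell cannot be told apart.

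The mitochondrial members sit on a circular genome in which several genes overlap, which bears on how reads can be assigned to them. The stretches below (GRCm38, heavy-strand genes in reading direction) show 3 overlaps, with the shared bases in capitals and 15 bases of flank on each side.
mt-Atp8 with mt-Atp6, chrM:7912-7984, 43 shared bases at 7927 to 7969: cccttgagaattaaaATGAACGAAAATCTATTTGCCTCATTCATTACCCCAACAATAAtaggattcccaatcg
mt-Nd4l with mt-Nd4, chrM:10152-10188, 7 shared bases at 10167 to 10173: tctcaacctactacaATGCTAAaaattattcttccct
mt-Nd5 with mt-Nd6 on the opposite strand, chrM:13537-13580, 14 shared bases at 13552 to 13565: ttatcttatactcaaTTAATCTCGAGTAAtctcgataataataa
In the first pair the capitals open with the ATG that starts mt-Atp6 inside mt-Atp8, and in the second with the ATG that starts mt-Nd4 inside mt-Nd4l. Each of these pairs is carried on 1 bicistronic mRNA. The strand setting of the counting is not given in the sources used here, so reads of mt-Nd6, the only member on the light strand, and those of transcripts from the other strand cannot be told apart with certainty.

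Nuclear members are known as targets of the factors NRF1, GABPA (an ETS factor) and YY1, and 48 of the 58 had a RefSeq promoter window (GRCm38.p6, 250 bases before to 50 after the start). The upstream 250 bases of 3 of them are shown because they hold both kinds of match, only the NRF1 letters, and none of the letters searched. Capitals mark GCATGCG (NRF1) or CCGGAAG (ETS) on either strand.
Cox6a1, chr5:115348959-115349208, minus strand: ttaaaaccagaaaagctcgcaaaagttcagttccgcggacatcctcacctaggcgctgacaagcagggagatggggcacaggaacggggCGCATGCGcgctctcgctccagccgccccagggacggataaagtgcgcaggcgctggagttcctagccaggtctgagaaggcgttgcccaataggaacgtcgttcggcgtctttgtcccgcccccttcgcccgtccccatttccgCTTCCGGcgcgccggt
Ndufa11, chr17:56717512-56717761, plus strand: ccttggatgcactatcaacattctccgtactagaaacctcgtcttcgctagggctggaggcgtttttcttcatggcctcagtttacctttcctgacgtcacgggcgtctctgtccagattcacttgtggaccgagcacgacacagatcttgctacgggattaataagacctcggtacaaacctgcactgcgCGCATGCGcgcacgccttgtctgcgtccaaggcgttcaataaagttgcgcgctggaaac
Ndufb4, chr16:37654369-37654618, minus strand: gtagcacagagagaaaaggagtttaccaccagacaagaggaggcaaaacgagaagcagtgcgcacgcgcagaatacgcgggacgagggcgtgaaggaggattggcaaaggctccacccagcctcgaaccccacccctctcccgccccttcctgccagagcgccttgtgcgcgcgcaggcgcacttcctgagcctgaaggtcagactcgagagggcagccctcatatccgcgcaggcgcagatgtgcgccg
Over the 300-base windows, GCATGCG was present for 7 of 48 members (14.6%), against 4.49% of 17492 protein-coding genes. CCGGAAG was present for 11 (22.9%, against 11.9%) and AAGATGGC, the YY1 letters, for 7 (14.6%, against 3.22%). CACGTG, an E-box searched as a contrast, was present for 2 (4.17%, against 7.9%). The 22 members with any of the first 3 had a median log2 fold change between high protein and control of 0.23, and the 26 with none of them had 0.25.

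Levels per length are given as TPM, the usual share of transcripts, computed from the counts and the deposited exon lengths. The mitochondrial members were far more abundant than the nuclear ones, with a median of 7000 TPM against 102. The 13 mitochondrial protein genes took 5.23% to 8.03% of all counts in a library, and the 58 nuclear members together took 0.445% to 0.637%. Among mitochondrial genes, mt-Co1, the catalytic core of complex IV, was the highest at 28700 ± 2750 TPM (SD, n = 16), followed by mt-Atp6, the proton channel subunit of complex V, at 25200 ± 2570. mt-Co3 was at 17900 ± 2090, mt-Co2, which takes the electrons from cytochrome c, at 15500 ± 1840, and mt-Cytb, the complex III subunit, at 13500 ± 1460. The SD ranges of mt-Co1 and mt-Atp6 overlap, as do those of mt-Co3 and mt-Co2 and of mt-Co2 and mt-Cytb.

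The 7 mitochondrial complex I genes were lower per length, from mt-Nd4 at 9220 ± 1290 TPM through mt-Nd1 (7000 ± 919), mt-Nd2 (6060 ± 980), mt-Nd6 (5930 ± 978), mt-Nd5 (4260 ± 935) and mt-Nd4l (3770 ± 1070) to mt-Nd3 at 1190 ± 260. The SD ranges of neighbours in that order overlap, except between mt-Nd4 and mt-Nd1 and between mt-Nd4l and mt-Nd3. mt-Atp8, at 204 bases the shortest member, was lowest at 474 ± 84.5 TPM. Although mt-Atp8 shares its mRNA with mt-Atp6, its TPM was 1.36% to 2.27% of that of mt-Atp6. mt-Nd4l, which shares an mRNA with mt-Nd4, was at 29.5% to 54.8% of its partner. The share of these gaps that read assignment in the overlaps printed above accounts for was not tested.

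**Figure D1:**
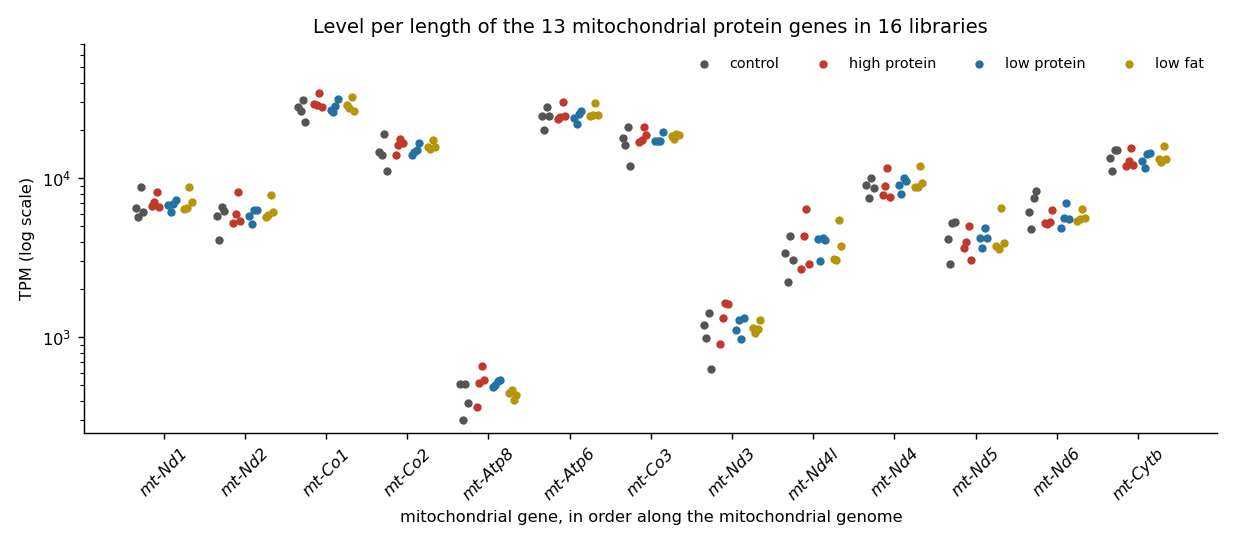
Level per length (TPM, log scale) of the 13 mitochondrial protein genes in genome order, with 1 point per library and 4 libraries per diet. The 4 diets overlap in range for most genes, while the genes span from 474 TPM (mt-Atp8) to 28700 TPM (mt-Co1) on average.

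In complexes I, III and IV the highest nuclear member was below the lowest mitochondrial one per length. In complex I, Ndufa4 was highest at 199 ± 31.2 TPM (a subunit that is now counted with complex IV) and Ndufb2 lowest at 2 ± 0.379 TPM. The deposited exon length of Ndufb2 is 5628 bases and its reads numbered only 109 to 594 per library, the fewest of any member. Complex II held Sdha, the flavoprotein of succinate dehydrogenase, at 279 ± 22.3 TPM as its highest and Sdhc, a membrane anchor, at 115 ± 11.6 as its lowest. Complex III ran from Uqcrfs1, the Rieske iron-sulphur protein, at 288 ± 26.8 TPM to Uqcrb at 106 ± 15.7. Complex IV ran from Cox4i1, the regulatory subunit and the highest nuclear member of all, at 435 ± 69 TPM to Cox6c at 48.9 ± 7.24.

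All 71 members passed the low-count filter, which kept 17833 genes for testing. No member passed an adjusted p of 0.05 in any of the 6 comparisons between diets, or in the joint test of the 3 diets against control, by edgeR's quasi-likelihood test. The same test called 0 of the 17833 genes (percent called 0) in each of them. At an unadjusted p under 0.05, 2 members passed in the joint test, against 6.59% of all genes. DESeq2 and limma-voom also called no member, although over all genes DESeq2 called between 0 and 81 in the 6 comparisons. The values below are therefore descriptions of fitted differences and their errors. They do not show that diets acted alike, since the SE of a log2 fold change ran from 0.10 to 0.28 among members.

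The members were described library by library as the median, over a genome's members, of log2 CPM minus the member's mean over the 16 libraries. For the nuclear members it was -0.14, 0.08, -0.01 and -0.06 in control replicates 1 to 4, and -0.03, 0.16, 0.10 and 0.49 with high protein. It was -0.03, 0.02, -0.22 and 0.11 with low protein, and 0.01, -0.18, -0.36 and 0.02 with low fat. High protein replicate 4 stood highest and low fat replicate 3 lowest, and the 4 diets overlapped. In high protein replicate 4, 57 of 58 nuclear members were above their own mean, whereas in low protein replicate 3 and low fat replicate 2 the number was 0 of 58. High protein replicate 4 also had the highest sum of the 6 erythroid markers, at 1260 CPM against 180 to 760 in the other 15 libraries, mostly from globin genes such as Hba-a1 (494 CPM). The part of erythroid RNA in the nuclear medians was not tested.

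The mitochondrial members gave a different order of libraries. Their median was 0.01, -0.31, 0.04 and 0.07 in control, -0.02, -0.17, 0.15 and 0.02 on low fat, -0.06, -0.26, 0.06 and 0.16 on low protein, and -0.21, 0.01, 0.38 and 0.13 on high protein. High protein replicate 3 was highest and control replicate 2 lowest. Control replicate 2 had 44 of 58 nuclear but 0 of 13 mitochondrial members above their mean, and low fat replicate 3 had 3 of 58 nuclear and 11 of 13 mitochondrial ones. After removal of the group means, the median Pearson r over pairs of members in the 16 libraries was 0.67 within the nuclear set, 0.66 within the mitochondrial set and -0.05 between the sets. The pairs share the same 16 libraries, so these are descriptions with no test.

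**Figure D2:**
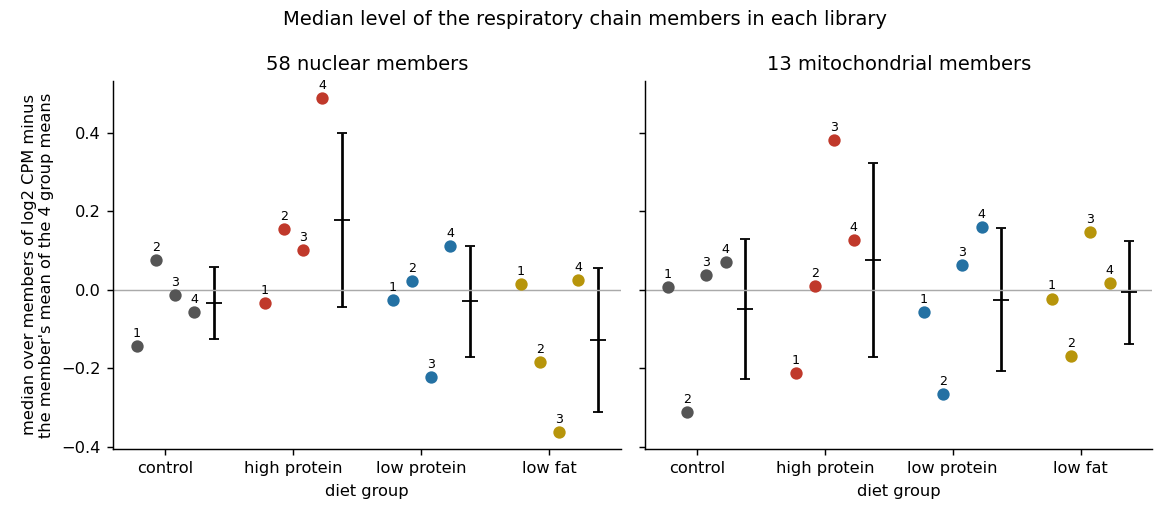
Median deviation of the 58 nuclear (left) and 13 mitochondrial (right) members in each library, on the log2 CPM scale, by diet. Points are libraries numbered by replicate, and bars are the group mean with SD (n = 4). High protein replicate 4 is highest among nuclear medians (0.49) and high protein replicate 3 among mitochondrial ones (0.38).

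Between high protein and control, 53 of 58 nuclear members had a fitted log2 fold change above 0, with a median of 0.22. The mitochondrial members were above 0 in 10 of 13 cases with a median of 0.17. The background ran the other way in this fit, with 41.7% of all genes tested above 0 and a median of -0.06. That median of all genes was -0.079 without control replicate 2, -0.013 without control replicate 4, 0.003 without control replicate 3 and 0.006 with limma-voom. At an unadjusted p under 0.05 stood 8 members, all higher with high protein (11.3% of 71), against 6.22% of all genes, and their smallest adjusted p was 0.762. The 4 high protein libraries lay above all 4 control libraries for 4 members (mt-Co1, Ndufa10, Ndufb10 and Ndufb2), against 1.12% of all genes, and below them for 0 members, against 0.841%. The number at an unadjusted p under 0.05 was 1 without high protein replicate 4, 3 without high protein replicate 2 or control replicate 4, 4 without control replicate 1 or low fat replicate 2, 5 without high protein replicate 3 and 25 without high protein replicate 1. The share of all genes in those fits was, in the same order, 4.14%, 5.52%, 8.79%, 7.94%, 5.43%, 5.57% and 5.01%. The nuclear median was 0.10 without high protein replicate 4, with 46 of 58 above 0, and 0.18 without control replicate 4. The mitochondrial median was 0.05 without high protein replicate 3 and 0.06 without control replicate 2.

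Of the 36 nuclear members of complex I, 33 were above 0, with a median of 0.23. Ndufb4, one of the accessory subunits that surround the catalytic core, had the highest value and was at 20.3, 23.1, 25.2 and 22.2 CPM in control and 24.6, 31.9, 30.1 and 33.4 CPM with high protein. High protein replicate 1 fell within the control range and the other 3 lay above it, and the log2 fold change was 0.40 ± 0.14 (SE, adjusted p = 0.762, edgeR). Ndufb10 was at 74.1, 88.9, 89.4 and 75.7 CPM in control and 89.8, 105, 92.7 and 122 CPM with high protein. These groups did not overlap, with a gap of under 1 CPM between control replicate 3 and high protein replicate 1, and the log2 fold change was 0.32 ± 0.13 (adjusted p = 0.762, edgeR). Ndufb2 was at 5.55, 5.58, 4.46 and 3.35 CPM in control and 5.91, 5.61, 5.90 and 6.21 CPM with high protein, a log2 fold change of 0.32 ± 0.21. Ndufa4 was at 124, 123, 115 and 93.5 CPM in control and 108, 148, 150 and 168 CPM with high protein (0.34 ± 0.16). Other accessory subunits were low in that order, with 0.14 ± 0.13 for Ndufs4 and 0.03 ± 0.11 for Ndufa9.

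Core subunits of complex I ran from the lowest of the 36 to above its median, and core and accessory subunits were not compared by a test. Ndufs1, which carries several iron-sulphur clusters, was at 138, 139, 131 and 149 CPM in control and 132, 138, 112 and 124 CPM with high protein, a log2 fold change of -0.14 ± 0.12. Ndufv1, which binds NADH, was at 167, 207, 183 and 294 CPM in control and 205, 187, 186 and 274 CPM with high protein, a log2 fold change of 0.00 ± 0.17. Control replicate 4 was the highest of the 8 libraries for Ndufv1, and without it the log2 fold change was 0.19. Among the other core genes the log2 fold change was 0.27 ± 0.16 for Ndufs7, 0.18 ± 0.13 for Ndufs3, 0.12 ± 0.13 for Ndufv2 and 0.06 ± 0.16 for Ndufs8.

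Complex II, the one complex without mitochondrial genes, had a median log2 fold change of 0.03. Sdha was at 527, 544, 520 and 579 CPM in control and 534, 555, 483 and 584 CPM with high protein, a log2 fold change of -0.01 ± 0.10. Sdhb, its iron-sulphur partner, had a log2 fold change of 0.01 ± 0.11, and the anchors Sdhc and Sdhd had 0.08 ± 0.11 and 0.05 ± 0.13. The groups overlapped for all 4 genes.

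Complex III had a median of 0.20, with 7 of 8 nuclear members above 0. Uqcr11, a small structural subunit, was at 35.3, 41.0, 43.2 and 24.9 CPM in control and 36.5, 52.9, 54.1 and 65.3 CPM with high protein. That is the largest fold change among the members in this comparison (0.53 ± 0.23, adjusted p = 0.762, edgeR), with control replicate 4 the lowest library, and it was 0.38 without that library. Uqcr10, a further small subunit, was at 36.4, 41.1, 35.8 and 35.0 CPM in control and 36.3, 47.3, 45.2 and 71.7 CPM with high protein (0.44 ± 0.20, adjusted p = 0.762, edgeR). The small subunits Uqcrq, Uqcrh and Uqcrb had 0.34 ± 0.17, 0.25 ± 0.18 and 0.15 ± 0.14. The Rieske protein Uqcrfs1 and the core protein Uqcrc1 had log2 fold changes of 0.06 ± 0.13 and 0.06 ± 0.14, and the core protein Uqcrc2 had -0.10 ± 0.12.

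All 10 nuclear members of complex IV were above 0, with a median of 0.25. Cox7a2, the form of a small subunit that liver uses, was at 60.4, 67.7, 64.4 and 52.7 CPM in control and 63.0, 81.5, 76.5 and 93.5 CPM with high protein. High protein replicate 1 lay within the control range, and the log2 fold change was 0.36 ± 0.15 (adjusted p = 0.762, edgeR). Cox7c was at 47.4, 55.1, 45.2 and 47.9 CPM in control and 40.4, 62.0, 67.0 and 74.6 CPM with high protein (0.32 ± 0.18). Cox4i1 had a log2 fold change of 0.18 ± 0.18, Cox6c 0.18 ± 0.17 and Cox5a 0.01 ± 0.14.

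Among the mitochondrial members, the 3 complex IV genes had nearly the same log2 fold change. mt-Co1 was at 20000, 18400, 19000 and 18700 CPM in control and 20000, 20500, 25900 and 21900 CPM with high protein (0.21 ± 0.13). The lowest high protein value and the highest control value of mt-Co1 round to the same number. mt-Co2 and mt-Co3 had log2 fold changes of 0.21 ± 0.13 and 0.21 ± 0.14. mt-Nd3, a complex I subunit, was at 192, 153, 195 and 118 CPM in control and 139, 211, 280 and 284 CPM with high protein (0.48 ± 0.21, adjusted p = 0.762, edgeR). Control replicate 4 and high protein replicate 1 were the lowest of the 8 libraries, and the log2 fold change was 0.34 without the former.

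The other mitochondrial genes spread in both directions. The log2 fold change was 0.40 ± 0.28 for mt-Nd4l, 0.35 ± 0.19 for mt-Atp8, 0.17 ± 0.20 for mt-Nd2, 0.14 ± 0.15 for mt-Nd1, 0.12 ± 0.15 for mt-Atp6 and 0.09 ± 0.17 for mt-Nd4. It was -0.01 ± 0.16 for mt-Cytb and -0.13 ± 0.24 for mt-Nd5. mt-Nd6, the light-strand gene, was at 1460, 1110, 1530 and 2320 CPM in control, 1290, 1210, 1420 and 1330 on low fat, 1190, 1230, 1350 and 1640 on high protein, and 1150, 1260, 1620 and 1350 on low protein. Control replicate 4 was the highest of the 16 libraries, and the log2 fold change of mt-Nd6 was below 0 for each diet, at -0.29 ± 0.19 on low fat and -0.25 ± 0.19 on each of high and low protein. Without control replicate 4 the log2 fold changes of mt-Nd6 were -0.09 on low fat, -0.04 on low protein and -0.02 on high protein. The 3 values share the same controls.

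**Figure D3:**
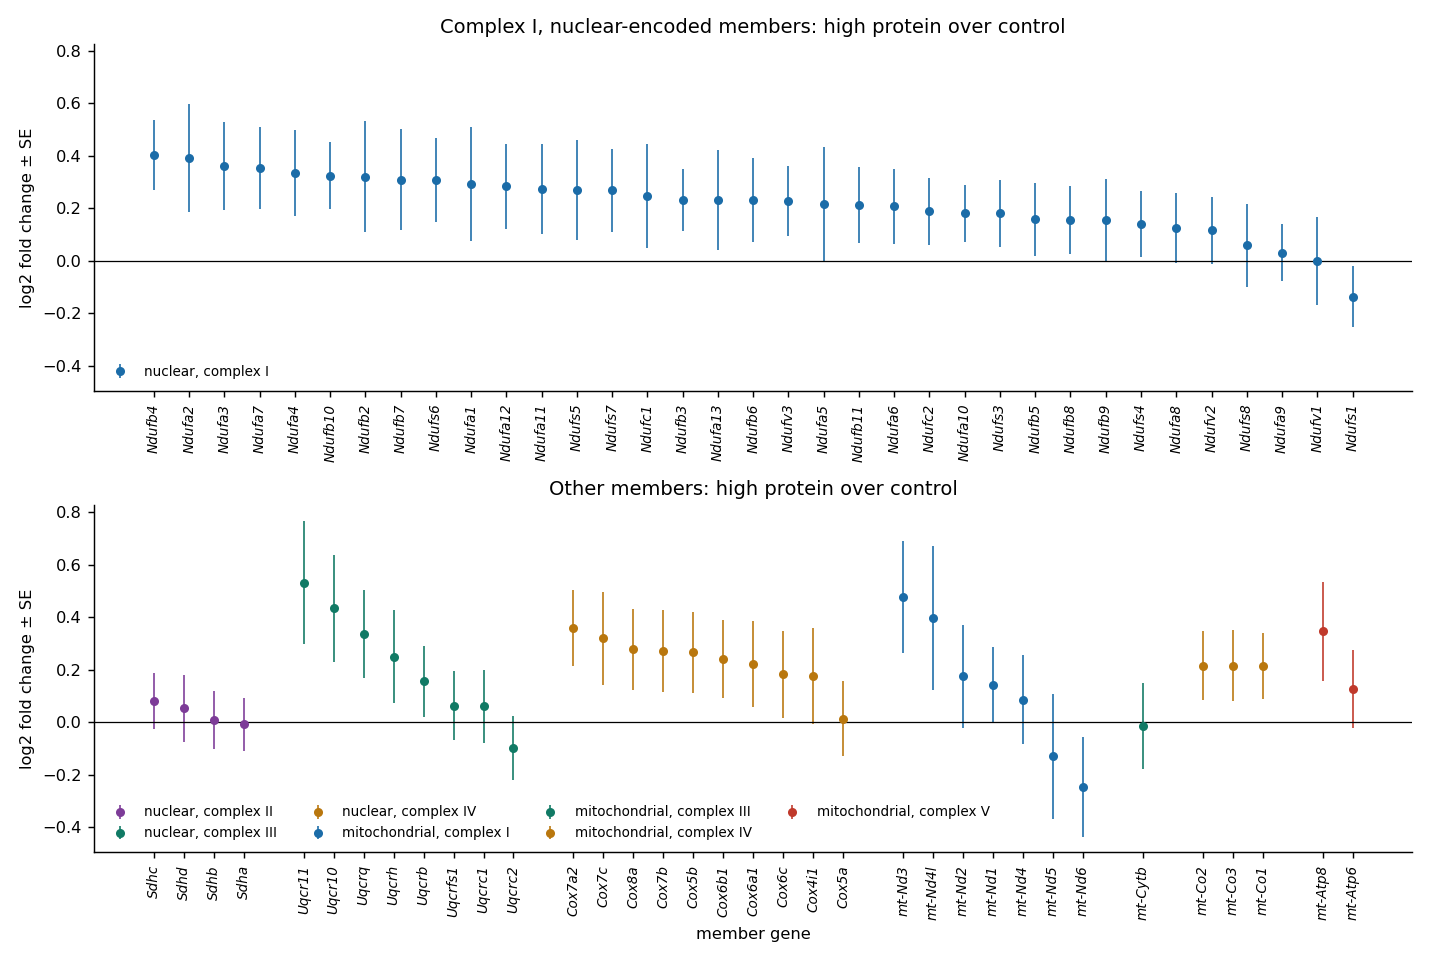
Log2 fold change of the members between high protein and control, with SE (edgeR fit over 16 libraries), sorted within complex and genome. Upper panel, 35 of the 36 nuclear members of complex I. Lower panel, the other members. Ndufb4 (0.40) and Uqcr11 (0.53) are at the top of their complexes, and Ndufs1 (-0.14), Uqcrc2 (-0.10) and mt-Nd6 (-0.25) at the bottom.

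The fold change between high protein and control varied with the length of the gene, and so did that between low protein and control. Over the 58 nuclear members, Spearman's rho of the log2 fold change (high protein over control) was -0.45 with exon length, -0.57 with genomic length and -0.63 with the level of the gene, and over the 13 mitochondrial members it was -0.57 with length. Over 14259 tested protein-coding genes off the mitochondrial genome, rho was -0.22 with each length and 0.08 with level. Members are compact, with a median exon length of 1438 bases against 4296 for those genes and a median genomic length of 7565 bases against 23781. The 17 nuclear members under 1000 exonic bases had a median log2 fold change of 0.24, and all 357 protein-coding genes of that class had 0.19. In the class of 1000 to 2000 bases the medians were 0.27 for 21 members and 0.06 for 1675 genes, and over 2000 bases they were 0.10 for 20 members, 15 of them above 0, and -0.09 for 12227 genes. Some long members were high, such as Ndufb2 (5628 bases, 0.32). Low protein over control also had values of rho below 0. Over the 58 nuclear members they were -0.47 with exon length, -0.52 with genomic length and -0.56 with level. For low fat over control, rho was -0.22 with each length and -0.47 with level. For high protein the length values were -0.39 and -0.52 over low fat, and 0 and -0.09 over low protein. For low fat over low protein they were 0.5 and 0.53. Over the 14259 genes they were -0.14 and -0.13 for low protein and -0.07 and -0.02 for low fat, each over control. For high protein those genes had -0.13 and -0.16 over low fat, and -0.09 and -0.11 over low protein. Low fat over low protein had 0.09 and 0.12. No rho was taken without control replicate 4. The comparisons with control share its libraries. The part of length in the members' values was not tested.

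**Figure D4:**
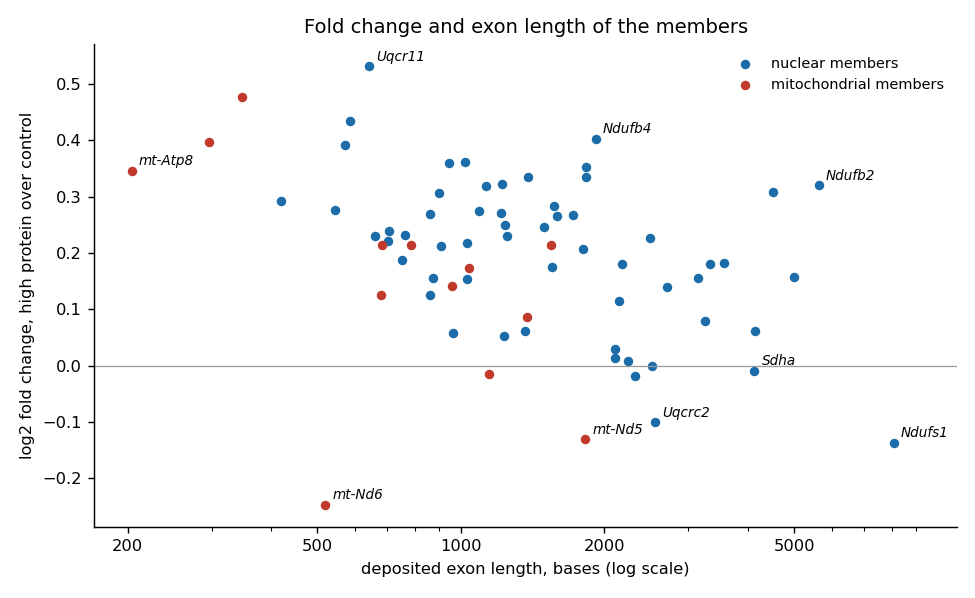
Log2 fold change between high protein and control against deposited exon length (log scale) for the 58 nuclear and 13 mitochondrial members. Short members such as Uqcr11 and mt-Atp8 lie high. Among long ones Ndufs1 and Sdha lie near or below 0 and Ndufb2 (0.32) lies high. mt-Nd6 (-0.25) lies apart from other short members.

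The 3 comparisons of high protein with another diet share its 4 libraries. Between high protein and low protein, all 58 nuclear members were above 0, with a median log2 fold change of 0.22, and 12 of 13 mitochondrial members were, with a median of 0.14. Over all genes tested, 47.5% were above 0 and the median was -0.016. At an unadjusted p under 0.05 stood 5 members (Ndufb10, Ndufb5, Uqcrb, Cox5a and Cox7a2), or 7.04% of 71, against 5.17% of all genes. The libraries did not overlap for 7 members, all higher with high protein, among them Ndufs3, Uqcrfs1 and Cox5a, against 3.15% of all genes higher and 3.47% lower. Cox5a was at 63.6, 65.8, 64.2 and 86.8 CPM with high protein and 55.8, 59.5, 51.1 and 59.6 CPM with low protein. The number at an unadjusted p under 0.05 was 0 without high protein replicate 4 or low protein replicate 3, 1 without high protein replicate 2, 2 without low protein replicate 1, 3 without low protein replicate 2, 13 without control replicate 4 and 16 without high protein replicate 1. The share of all genes in those fits was, in the same order, 2.91%, 3.37%, 5.31%, 3.51%, 4.74%, 11.1% and 4.06%. The nuclear median was 0.11 without high protein replicate 4, and the mitochondrial median was 0.01, with 7 of 13 above 0, without high protein replicate 3. Spearman's rank correlation with exon length over the 58 was 0 here.

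Between high protein and low fat the nuclear median was the highest of the 6 comparisons. All 58 nuclear members were above 0, with a median log2 fold change of 0.32, and 12 of 13 mitochondrial members were, with a median of 0.11, while 47.0% of all genes were above 0, with a median of -0.02. That mitochondrial median was the lowest of the 3 comparisons with high protein, and without high protein replicate 3 it was 0.03 with 7 of 13 above 0. By complex the nuclear medians were 0.30 for I, 0.17 for II, 0.36 for III and 0.37 for IV. At an unadjusted p under 0.05 stood 21 members, all nuclear and all higher with high protein (29.6% of 71), against 9.08% of all genes. Of the 10 nuclear members of complex IV, 7 were among them. The smallest adjusted p was 0.465, shared by Cox7a2, Ndufb10 and Ndufc2. The libraries did not overlap for 9 members, all higher, against 4.23% of all genes higher and 3.99% lower.

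Ndufb10 was at 77.5, 79.4, 68.3 and 89.3 CPM with low fat, against 89.8 to 122 CPM with high protein. Cox7a2 was at 65.4, 56.2, 46.1 and 64.4 CPM with low fat, against 63.0 to 93.5 CPM with high protein, where replicate 1 alone lay within the low fat range. Ndufs3 was at 104, 92.1, 81.4 and 101 CPM with low fat and 112, 112, 113 and 148 CPM with high protein. The number at an unadjusted p under 0.05 was 4 without high protein replicate 4, 4 without low fat replicate 3, 7 without low fat replicate 2, 33 without control replicate 1, 34 without low fat replicate 4, 36 without low fat replicate 1, 37 without high protein replicate 1 and 43 without control replicate 4. The share of all genes in those fits was, in the same order, 5.65%, 5.83%, 6.46%, 9.92%, 9.68%, 8.27%, 6.63% and 17.1%. The control libraries enter this contrast only through the filter, the normalisation and the estimated spread. With the kidney marker level as a covariate the number was 39, against 6.45% of all genes. The smallest adjusted p was then 0.638 (edgeR) and the nuclear median 0.40.

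Between low protein and control the fold changes lay around 0. Of 58 nuclear members 27 were above 0 (median -0.01), and of 13 mitochondrial members 8 were (median 0.03), with 0 members at an unadjusted p under 0.05, against 7.08% of all genes. The share of all genes above 0 was 45.6% (median -0.035). Without low protein replicate 3, 40 nuclear members were above 0 (median 0.05), and without low protein replicate 4, 20 nuclear (median -0.07) and 4 mitochondrial members were (median -0.04). No member had non-overlapping libraries, against 1.61% of all genes higher and 0.869% lower. The nuclear members with the smallest p in their complexes were below 0, with log2 fold changes of -0.22 ± 0.12 for Ndufs1, -0.30 ± 0.17 for Ndufv1, -0.17 ± 0.11 for Sdhb, -0.19 ± 0.13 for Sdhd, -0.19 ± 0.12 for Uqcrc2, -0.20 ± 0.13 for Uqcrfs1, -0.30 ± 0.14 for Cox5a and -0.12 ± 0.18 for Cox4i1. Ndufv1 was at 163, 188, 162 and 181 CPM with low protein, against 167 to 294 in control. Without control replicate 4 the log2 fold change of Cox5a was -0.19.

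Between low fat and control, 9 of 58 nuclear members were above 0, with a median of -0.09, and 9 of 13 mitochondrial members were, with a median of 0.04. The share of all genes above 0 was 47.6% (median -0.02). Without low fat replicate 3, 24 nuclear members were above 0 with a median of -0.02, and without control replicate 4 the number was 1, with a median of -0.13. The mitochondrial median was -0.04 with 5 of 13 above 0 without control replicate 2. A single member, Cox5a, stood at an unadjusted p under 0.05 (1.41% of 71), against 9.22% of all genes. No member had non-overlapping libraries, against 1.27% of all genes higher and 1.32% lower. Cox5a, a matrix-side subunit of complex IV, was at 52.8, 69.3, 68.5 and 87.3 CPM in control and 58, 53.4, 52.2 and 59.3 CPM with low fat, with the lowest control library inside the low fat range (-0.32 ± 0.14, adjusted p = 0.534, edgeR). Control replicate 4 was the highest control library for Cox5a, and without it the log2 fold change was -0.22 (adjusted p = 0.932, edgeR). Other nuclear members with small p were also below 0, at -0.32 ± 0.17 for Ndufv1, -0.22 ± 0.11 for Sdhb, -0.20 ± 0.13 for Sdhd, -0.21 ± 0.14 for Uqcrc1, -0.19 ± 0.13 for Uqcrfs1 and -0.24 ± 0.18 for Cox4i1. The kidney markers summed to 930, 1520, 2820 and 2570 CPM in low fat replicates 1 to 4, and replicate 3, the library with the lowest nuclear median, had the highest of these. With the kidney marker level as a covariate, 3 of 58 nuclear and 4 of 13 mitochondrial members were above 0, with medians of -0.17 and -0.02.

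Between low fat and low protein, 10 of 58 nuclear members were above 0 (median -0.08) and 8 of 13 mitochondrial members were (median 0.01), with 0 at an unadjusted p under 0.05, against 2.38% of all genes. The share of all genes above 0 was 50.4% (median 0.002). Without low fat replicate 3, 23 nuclear members were above 0 (median -0.02), and without low protein replicate 2, 0 of 13 mitochondrial members were (median -0.04). The libraries did not overlap for 1 member, mt-Atp8, lower with low fat, against 2.14% of all genes lower and 2.35% higher. It was at 41.9, 39.9, 34.9 and 39.8 CPM with low fat and 44.5, 43.7, 48.9 and 51.2 CPM with low protein, a log2 fold change of -0.27 with an adjusted p of 1 (edgeR).

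**Figure D5:**
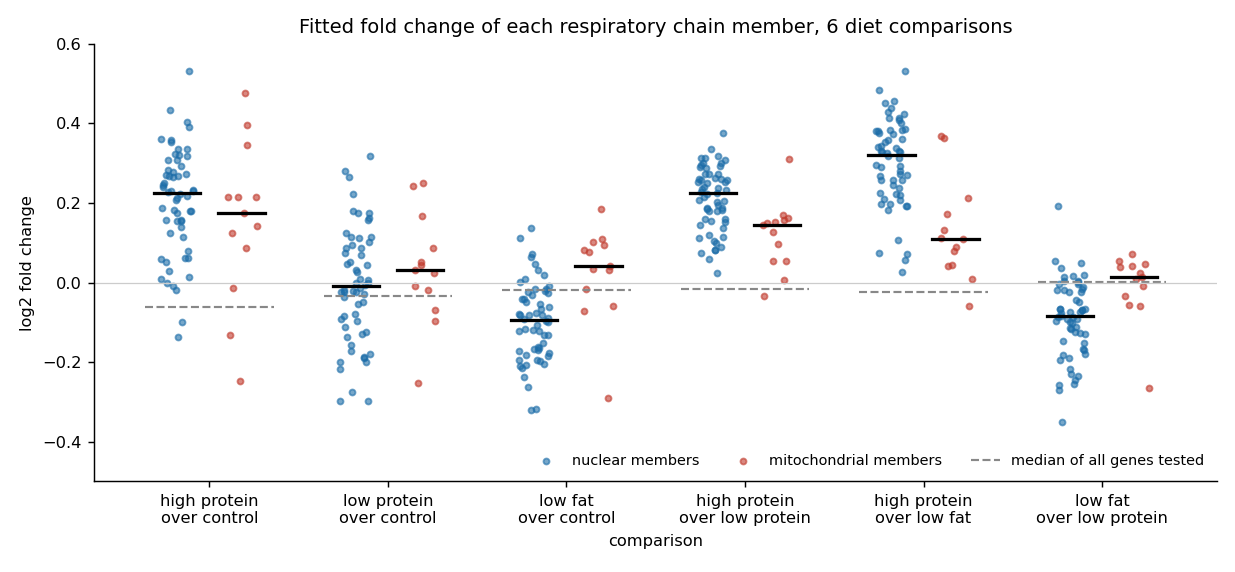
Log2 fold change of every nuclear (blue) and mitochondrial (red) member in the 6 comparisons. Black bars are the medians of the members, and dashed lines the median of all 17833 genes. The nuclear median is 0.22, 0.22 and 0.32 in the 3 comparisons of high protein with another diet and between -0.01 and -0.09 in the other 3.

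Related mitochondrial genes were counted from lists, and none of them passed an adjusted p of 0.05 (edgeR). The share of all genes above 0 was 41.7% between high protein and control, 47.5% against low protein and 47.0% against low fat. Of 17 nuclear subunits of the ATP synthase, 15 were above 0 between high protein and control (median 0.23). At an unadjusted p under 0.05 stood 3 of them, against 6.22% of all genes. All 17 were above 0 against low protein and against low fat (medians 0.26 and 0.36). Of 77 mitochondrial ribosome genes, which make the 13 mitochondrial proteins, 67 were above 0 against control (median 0.18), and of 45 assembly factors 35 were (median 0.11). The 2 mitochondrial ribosomal RNAs had log2 fold changes of 0.34 and 0.48 against control, and 6 of the 13 mitochondrial tRNA genes tested were above 0 (median -0.03). Genes for the upkeep and expression of mitochondrial DNA had 12 of 30 above 0 against control (median -0.05), and the tricarboxylic acid cycle 6 of 14 (median -0.07). Between high protein and low protein these numbers were 25 of 30 (median 0.09) and 12 of 14 (median 0.23). Between high protein and low fat they were 23 of 30 (median 0.13) and 12 of 14 (median 0.17).

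Of the regulators of mitochondrial biogenesis, 2 of 10 were above 0 between high protein and control in the main fit (median -0.28). That count was not taken without control replicate 4. Between high protein and low protein 7 of 10 were above 0 (median 0.11), and between high protein and low fat 7 of 10 (median 0.18). Ppargc1a, which encodes the coactivator PGC-1alpha, was at 14.5, 24.8, 27.9 and 148 CPM in control and 59.4, 30.7, 24.2 and 56.1 with high protein. It was at 11.7, 17.6, 9.08 and 13.1 CPM with low protein, and 13.7, 18.1, 11.8 and 33.3 with low fat. Control replicate 4 set the control mean of 53.9 ± 63.2 CPM. The other controls were at 14.5 to 27.9 CPM, against 24.2 to 59.4 with high protein. Against control the adjusted p of Ppargc1a was 0.53 on low fat, 0.682 on low protein and 0.891 on high protein (edgeR). The log2 fold change of Ppargc1a was 1.73 ± 0.6 between high protein and low protein (adjusted p = 0.921, edgeR). Between high protein and low fat it was 1.15 ± 0.59 (adjusted p = 0.562, edgeR). Tfam, the packaging and transcription factor of mitochondrial DNA, was at 45.4 ± 4.18 CPM in control and 47.2 ± 3.22 with high protein. Polrmt, the mitochondrial RNA polymerase, was at 33.7 ± 18.3 and 28.0 ± 1.93 CPM, with control replicate 4 at 61.1, and Lrpprc, which stabilises mitochondrial mRNA, at 129 ± 14.7 and 123 ± 7.9 CPM.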

How the data were processed

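Gene counts of 16 liver libraries were analysed. The authors deposited a table of raw counts, with the position and exonic length of each gene. Tools named in the submitters' processing notes are STAR 2.7.0f, Trimmomatic 0.39, edgeR 3.32.1 and featureCounts from Subread 1.6.4, on GRCm38.p6. Per the labels' protocols the library kit was directional, but how the counting treated strand and multimapping reads is not given in the sources used here, so reads shared with pseudogenes are uncertain. Symbols came from GENCODE M21 by stable gene identifier (54723 of 54752 genes), which 4 members needed because their version differed.

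The 17833 genes that passed filterByExpr in edgeR 4.0.16 (R 4.3.3) were scaled with TMM factors and fitted by quasi-likelihood over all 16 libraries with 4 group means. The 6 pairs of diets and the 3 diets jointly were tested, two-sided, with Benjamini-Hochberg adjustment over the 17833 genes at 0.05. CPM uses TMM-scaled totals, and library medians use log2 CPM with a prior count of 2. Replicates differed by more than sampling noise (a chi-square of at least 44.8 per degree of freedom). The steps were run on counts simulated from the mean level and spread of each gene, with changes put into some genes for high protein. Those counts hold no aberrant library and no shared variation of members, so the run does not bear on these features of the data. Alternatives were other scalings and filters, DESeq2 1.42.0, limma-voom (limma 3.58.1), fits of the 2 groups compared, a kidney covariate, a replicate block and removal of libraries.

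The members and lists were chosen with earlier results of these data known. Named by rule were the mitochondrial genes, core subunits, the highest and lowest TPM of each complex, any member past the threshold, and the nuclear members with the smallest and second smallest p of each complex and diet against control. A gene of the rule is not reported here. Other named members were chosen after their values were seen.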

Additional observations from a re-analysis of the deposited data

Results flagged for a closer look

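Each group of 4 libraries was examined for a single library whose gap to the nearest of the others exceeded the 95% critical share of the group's range in Dixon's test, over 196 groups (the named members and the library summaries). Chance flags about 1 in 20 groups, and 10 were found. High protein replicate 4 stood above the other 3 high protein libraries in 5 genes: Cox5a at 86.8 CPM (the others 63.6 to 65.8), Ndufs3 at 148 (112 to 113), Sdhb at 246 (197 to 204), Uqcrc1 at 419 (314 to 328) and Uqcrfs1 at 237 (178 to 187). These genes are not independent, since they share the library.

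In low protein replicate 3, Ndufa4 was at 102 CPM against 135 to 139. Sdha was at 541 CPM in low protein replicate 1 against 475 to 484, and mt-Nd4l at 388 CPM in low protein replicate 2 against 557 to 569.

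Control replicate 2 had a mitochondrial median of -0.312 on the log2 scale, against 0.007 to 0.071 in the other controls. In high protein replicate 1 the TPM of mt-Atp8 was 1.55% of that of mt-Atp6, against 2.13% to 2.17% in the other 3.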

How the results depend on the processing

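No member was called in any comparison under any of the 28 alternatives (the joint test of 3 diets has no fit of 2 groups), and the smallest adjusted p was 0.12 (Cox7a2, high protein against low fat, edgeR without control replicate 4). None of the 12 medians moved by more than the pooled SD of the library medians of the 2 diets compared, but that SD is wide (0.119 to 0.217) beside the medians themselves. With high protein against control, the nuclear median ran from 0.17 to 0.31 over the alternatives that kept all libraries or dropped 2 together and from 0.10 to 0.31 with 1 library left out, and the mitochondrial median from 0.16 to 0.27 and from 0.05 to 0.26. The nuclear median of high protein stayed above 0 against each other diet and that of low fat below 0 against control and low protein, in all 28. The nuclear and mitochondrial medians of low protein against control and the mitochondrial medians of low fat against control and low protein took both signs. The number of members at an unadjusted p under 0.05 ran from 1 to 26 for high protein against control, 0 to 16 against low protein and 4 to 43 against low fat. In the fits with the highest numbers the share of all genes was 12.0%, 4.06% and 17.1%, in the same order. In those with the lowest it was 2.04% to 5.3%, 2.91% to 5.01% and 5.65% to 5.83%. Replicate numbers were not treated as pairs in the main fit. The correlation of same-numbered deviations ran from -0.201 to 0.301 and exceeded 0.1 for every number in no pair of diets. Between control and low fat it was 0.258, 0.129, 0.301 and 0.071 for numbers 1 to 4. Whether the numbers pair libraries of those diets was not tested. In the fit with the replicate block, the nuclear medians of high protein were 0.21 against control, 0.22 against low protein and 0.31 against low fat, with 0 members called.

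Of 53 named fold changes, 40 kept their sign under every alternative. The other 13 were below 1 SE. For high protein against control, upper-quartile factors gave 0.07 for Ndufv1, 0.04 for Sdha and 0.05 for mt-Cytb. Library totals gave 0.03 for Ndufv1, -0.0028 for Sdhb and 0.01 for mt-Cytb. RLE factors and DESeq2 each gave -0.0008 for Cox5a and -0.01 for Sdhb. limma-voom gave -0.08 for Ndufs8, 0.13 for Ndufv1, -0.0048 for Sdhb, 0.13 for mt-Cytb and 0.16 for mt-Nd5, and 0.02 for Cox4i1 with low protein. Ndufv1 was 0.01 with TMM without the mitochondrial genes, with the 1 CPM filter and with the replicate block, 0.0028 without a filter and 0.0024 in the fit of 2 groups, where Sdhb was -0.0003. Without control replicate 3 and high protein replicate 1 together, Sdhd was -0.03 and mt-Cytb 0.03, and mt-Cytb was 0.01 with the kidney covariate. With 1 library left out, the ranges were -0.24 to 0.0049 for Cox4i1 (low protein) and, for high protein, -0.10 to 0.13 for Cox5a, -0.10 to 0.15 for Ndufs8, -0.13 to 0.19 for Ndufv1, -0.04 to 0.04 for Sdha, -0.07 to 0.06 for Sdhb, -0.01 to 0.14 for Sdhd, -0.04 to 0.18 for Uqcrc1, -0.03 to 0.17 for Uqcrfs1, -0.12 to 0.12 for mt-Cytb, -0.01 to 0.31 for mt-Nd2, -0.08 to 0.18 for mt-Nd4 and -0.3 to 0.07 for mt-Nd5. The cause of these changes was not tested.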

Other observations

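The small mitochondrial complex V gene mt-Atp8 and its partner mt-Atp6 came apart by library although they share an mRNA. The ratio of their TPM was 1.69% ± 0.228 on low fat, 1.73% ± 0.261 in control, 2.00% ± 0.302 on high protein and 2.10% ± 0.118 on low protein (SD, n = 4). All 4 low protein libraries, at 2.01% to 2.27%, lay above all 4 low fat libraries, at 1.36% to 1.86%. This was noticed in the data and not tested. The ratio of mt-Nd4l to mt-Nd4, the other bicistronic pair, overlapped between those diets, at 34.9% to 45.3% on low fat and 38.3% to 46.0% on low protein.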
